A study of Mus musculus with 8 samples.

Results

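Tubulin genes were followed in mouse neural tube at day 8.5 of gestation, on both sides of the point where the neural folds first meet. The 10 genes described are those listed under the symbols Tuba1a, Tuba1b, Tuba1c, Tuba4a, Tubb2a, Tubb2b, Tubb3, Tubb5, Tubb6 and Tubg1, out of 26608 genes in the count files. They comprise 4 alpha-tubulins, 5 beta-tubulins and 1 gamma-tubulin. Counts were found for 8 of them, the same 8 that passed the filter on low counts, and 2 had none. They were chosen by their names.

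Microtubules are hollow polymers built from dimers of an alpha- and a beta-tubulin. Gamma-tubulin sits in ring-shaped complexes from which new microtubules grow. Mammals carry several genes for each kind of subunit, called isotypes, and these differ mostly at the carboxy-terminal tail, where motors, severing enzymes and modifying enzymes act. In the neural plate, microtubules give the elongated epithelial cells their shape and form the spindles of dividing progenitors, and neurons later switch on isotypes of their own.

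The study cut neural tube from cryosections of FVB embryos by laser microdissection. Closed neural tube was taken directly behind closure site 1 and open neural tube directly in front of it. The dams were diabetic or normal, which gave diabetic closed (libraries 15 and 16), diabetic open (13 and 14), normal closed (11 and 12) and normal open (09 and 10), with 2 libraries a group and 8 in all. The sources used here do not say how diabetes was brought about, how many embryos a library holds or whether libraries share a litter, so the spread behind each p-value is that of these libraries and may be technical.

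Libraries were made from 7 ng of total RNA with a SOLiD SAGE kit. Such a kit counts 1 short tag per transcript, so levels of different genes can be set side by side without dividing by transcript length. Totals ran from 5041586 to 16655583 counts, and levels are given as CPM, the count scaled to a library total of 1000000. Neural progenitor markers (10 genes, among them Sox2 and Nes, a neural transcription factor and a neural intermediate filament) summed to between 911 and 1211 CPM in 7 libraries. They summed to 202 CPM in diabetic open library 13, where Sox2 was at 30.9 CPM, against 287 to 550 CPM (549.8 at most) elsewhere. Mesoderm markers (8 genes, with Pdgfra and Aldh1a2 the highest) summed to 1566 CPM in library 13, against 152 to 843 CPM elsewhere, and endothelial markers (7 genes, with Egfl7 and Tek the highest) to 292 CPM, against 26.4 to 127 CPM. Markers of primitive blood (6 genes, with Hba-x and Hbb-bh1 the highest) summed to 4.36 and 209 CPM in diabetic closed and 922 and 1009 CPM in diabetic open libraries, against 0.356 and 0.296 CPM in normal closed and 63.3 and 1.06 CPM in normal open libraries. Where a tubulin result turned on library 13, the value without it is given beside it. The part of these other cell types in any tubulin value was not tested. In such bulk tissue, fewer cells of a type and less RNA per cell cannot be told apart.

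What the counts can show depends on the tag of each gene. The tag was taken as the CATG nearest the 3′ end of the transcript and the bases after it, 27 in all, since CATG is the site cut by the anchoring enzyme of this kind of kit. The labels name the kit but not the enzyme or the tag length. Transcripts came from GENCODE release M21, whose assembly (GRCm38) is not the mm9 build of the counts. The 2 genes without counts, Tuba1a and Tubb2b, are shown first because their tags also occur in other tubulin genes. The site is in capitals and the sequences read 5′ to 3′.
Tuba1a: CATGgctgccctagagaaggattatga
Tubb2b: CATGaatgacctggtgtctgagtacca
The Tuba1a tag lies in the coding sequence, 282 bases from the transcript end. It also occurs in 10 other genes, namely Tuba1b, Tuba1c and 8 processed pseudogenes. The Tubb2b tag lies in the coding sequence too, 820 bases from the transcript end, and also occurs in Tubb2a and the pseudogene Tubb2a-ps2.

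The tags of 7 of the 8 genes with counts are shown next, because they set these genes apart from each other. That of Tubb6 is not printed.
Tubb5: CATGctcctcctgcccttggcttggtc
Tuba1c: CATGtgctgccattctatacttctgtg
Tubb2a: CATGgtctttctatttgtaaattatgg
Tubb3: CATGtgagtccacttggctctgtcctc
Tubg1: CATGgagcagttccgcaaggaggacat
Tuba1b: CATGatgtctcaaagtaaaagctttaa
Tuba4a: CATGgacttggcaaacctgcggagctg
All of these except the Tubg1 tag lie in 3′ untranslated regions, and the Tubg1 tag lies in the coding sequence. The Tuba1b tag begins 36 bases before the transcript end and also occurs in the non-coding transcript AC132481.2. The other 6 tags shown here, and that of Tubb6, occur in no other gene of the annotation.

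Tuba1a, an alpha-tubulin of migrating and differentiating neurons, was listed at 0 in all 8 libraries. So was Tubb2b, a beta-tubulin known from human cortical malformations. A count of 0 allows up to 0.0459 CPM over all libraries together and between 0.18 and 0.595 CPM in a single library, for counting error only. Both genes are among the 3 members whose tag occurs in another gene, and none of the 7 members with a tag of their own was at 0 throughout. Over all genes with a RefSeq-matched transcript, 1139 of 1545 with a shared tag (73.7%) were at 0 in every library, against 4886 of 16620 with a tag of their own (29.4%). How the submitters treated tags that occur in several genes is not given in the sources used here, so an absent transcript and an unassigned tag cannot be told apart for Tuba1a and Tubb2b.

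**Figure D1:**
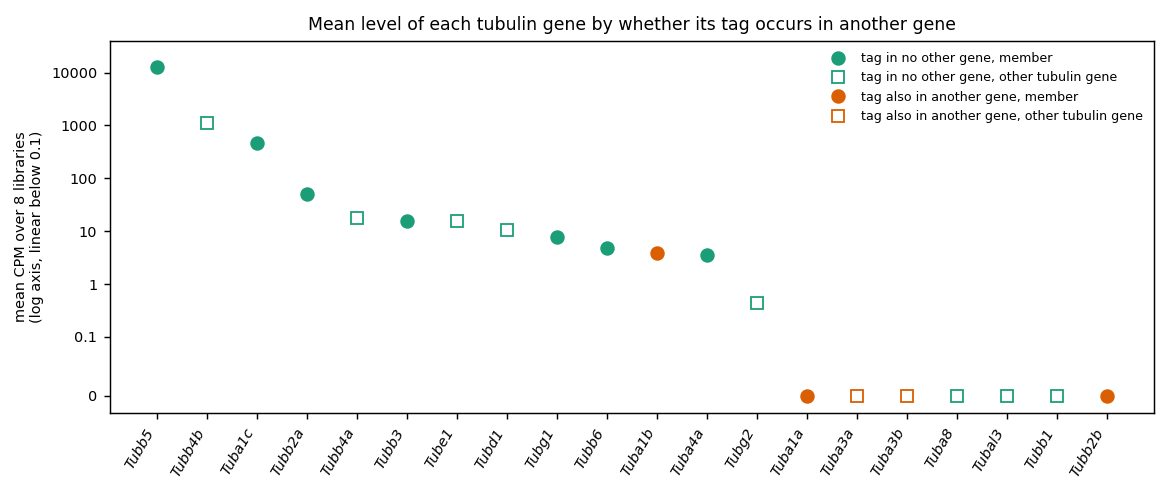
Mean level over 8 libraries (CPM, log axis that is linear below 0.1) of the 10 members (filled circles) and 10 other tubulin genes (open squares), ordered from high to low. Orange marks a tag that also occurs in another gene: Tuba1a, Tubb2b, Tuba3a and Tuba3b are at 0 and Tuba1b is at 3.84 CPM.

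Among the 10 members, a single gene held nearly all of the counts. Tubb5, the widely expressed class I beta-tubulin of dividing cells, had 13115 and 13470 CPM in diabetic closed libraries and 12685 and 11416 CPM in diabetic open libraries. It had 14097 and 14706 CPM in normal closed libraries and 11921 and 9871 CPM in normal open libraries. Tubb5 was among the 5 genes with the highest counts in every library and the highest of all in libraries 15 and 13. Its share of the summed counts of the 10 members, called the tubulin total below, ran from 94.5% to 96.6%.

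Tuba1c, a widely expressed alpha-tubulin, came next among the 10. It had 490.1 and 456 CPM in diabetic closed libraries and 661 and 397 CPM in diabetic open libraries, and 480.4 and 427 CPM in normal closed libraries and 409 and 369 CPM in normal open libraries. It held between 2.81% and 4.93% of the tubulin total and nearly all of the counts of the alpha members.

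The other members were far less abundant. The mean over 8 libraries was 12660 ± 1558 CPM for Tubb5 and 461 ± 90.9 CPM for Tuba1c (SD, n = 8). It was 50.3 ± 16.7 CPM for Tubb2a and 15.9 ± 8.08 CPM for Tubb3. Tubb5 was above Tuba1c, Tuba1c above Tubb2a and Tubb2a above Tubb3 in all 8 libraries, and Tubb3 was above Tubg1 in 6 of 8. Tubg1 averaged 7.74 ± 5.91 CPM, Tubb6 4.78 ± 6.28 CPM, Tuba1b 3.84 ± 3.29 CPM and Tuba4a 3.61 ± 4.87 CPM. The order of these lowest 4 is not set by the data: Tubg1 was above Tubb6 in 5 of 8 libraries, Tubb6 above Tuba1b in 3 and Tuba1b above Tuba4a in 5.

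Alpha and beta members were very unequal in their counts. Beta-tubulin counts were between 19.1 and 33.5 times the alpha-tubulin counts of the same library, although the protein forms a dimer with equal parts of both. The ratio averaged 29.5 ± 2.90 in closed and 25.9 ± 4.58 in open tissue (SD, n = 4 each), and it was lowest in library 13. Without that library open tissue averaged 28.1 ± 1.10 (n = 3). These ratios describe the deposited counts of the members only. Tuba1a was listed at 0, the Tuba1b tag also occurs in another transcript, and the beta-tubulin Tubb4b (839 to 1535 CPM) is not a member. Whether tags of the missing alpha gene would change the ratios was not tested.

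**Figure D2:**
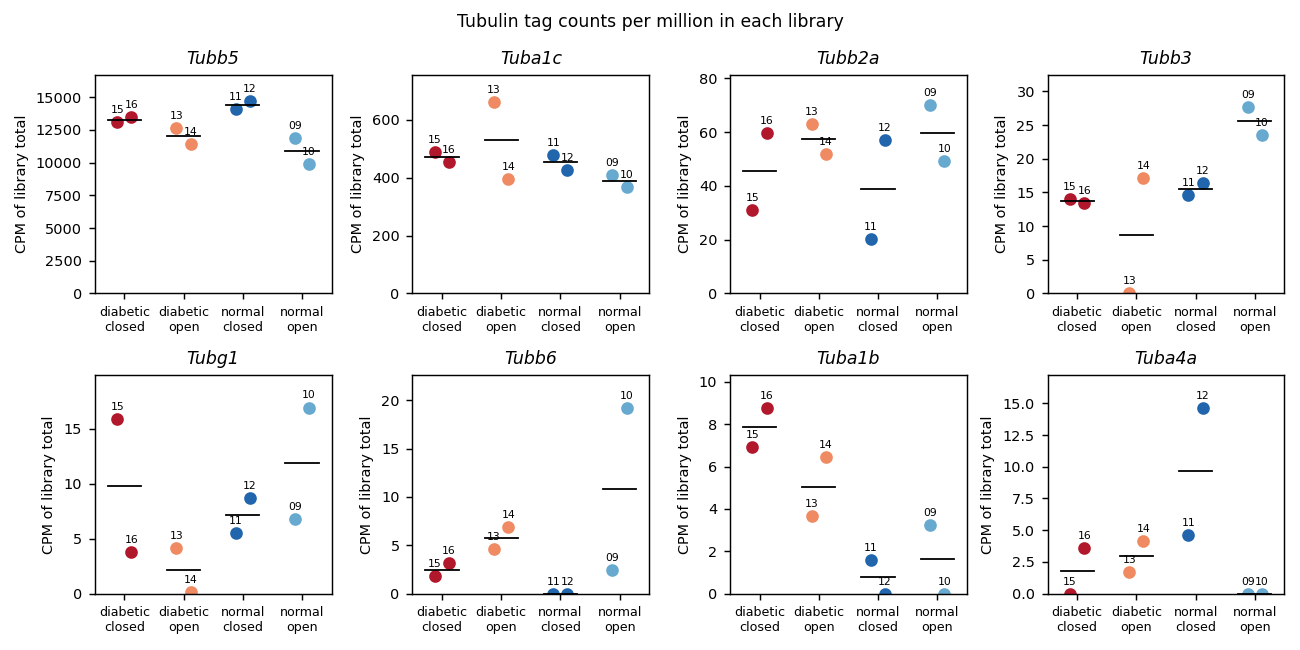
Level in CPM in each of 8 libraries, by dam and region, for the 8 members with counts. Points are single libraries with their numbers, bars are group means, and each panel has its own linear axis from 0; all 4 closed libraries sit above all 4 open libraries for Tubb5, and library 13 is at 0.12 CPM for Tubb3.

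The comparison of closed with open neural tube asks whether tubulin expression differs across the closure point. Tubb5 was higher in all 4 closed libraries (13115 to 14706 CPM) than in any open library (9871 to 12685 CPM). The same held after scaling by TMM factors. Closed tissue averaged 13847 ± 702 CPM, against 11473 ± 1189 CPM for open tissue (SD, n = 4 each). This was a 1.21-fold difference of the means. The fitted log2 fold change was 0.31 with a standard error of 0.15, which did not pass the test (edgeR quasi-likelihood test, adjusted p = 1.00, unadjusted p = 0.0573). Under the alternatives it lay between 0.22 and 0.36, with adjusted p-values between 0.909 and 1.00.

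Separation of the libraries by region was also counted over all genes. In 1.68% of the 11779 genes tested, every closed library was above every open library, and Tubb5 was the 1 of 8 tested members that did so. In 1.07% every closed library was below every open library, and no member did so. edgeR called 0% of the genes tested between closed and open tissue, with 391 genes at an unadjusted p under 0.05, none of them a member. DESeq2 called 9 genes and limma-voom 0, again with no member among them.

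Because Tubb5 dominates, the summed tubulin signal followed it. The 10 members together had 13675 and 14019 CPM in diabetic closed and 13424 and 11899 CPM in diabetic open libraries, and 14624 and 15230 CPM in normal closed and 12440 and 10349 CPM in normal open libraries. This came to 14387 ± 686 CPM for closed tissue and 12028 ± 1285 CPM for open tissue (SD, n = 4 each). No test was made of this sum. The members other than Tubb5 summed to 539.9 ± 17.3 CPM in closed tissue, against 555 ± 124 CPM in open tissue. The open mean rested on library 13, at 739 CPM. Without it the open libraries lay between 478.5 and 519.5 CPM (mean 494 ± 22.3 CPM, n = 3), below all 4 closed libraries (524 to 559.9 CPM). Separation without library 13 was not counted over all genes.

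Tubb2a, a beta-tubulin abundant in brain, took a smaller part of the tubulin total in closed tissue. Its share was 0.228% and 0.426% in diabetic closed and 0.470% and 0.436% in diabetic open libraries, and 0.139% and 0.374% in normal closed and 0.564% and 0.477% in normal open libraries. All 4 closed shares were below all 4 open shares, but the Wilson 95% intervals of the nearest pair, libraries 16 and 14, overlapped. The mean share was 0.292% ± 0.132 in closed and 0.487% ± 0.0546 in open tissue (SD, n = 4 each), a difference of -0.195 percentage points (two-sided exact permutation test, p = 0.0286). That is the smallest p that 4 against 4 libraries can give when labels are permuted over all 8 libraries, without regard to the dam. It was not below 0.05 when Tubb5 was taken out of the total (-2.98 percentage points, exact permutation p = 0.286) or on a centred log2 ratio scale (-0.81, exact permutation p = 0.114).

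The level of Tubb2a itself overlapped between the regions. It had 31.1 and 59.7 CPM in diabetic closed and 63.0 and 51.9 CPM in diabetic open libraries, and 20.3 and 57.0 CPM in normal closed and 70.2 and 49.4 CPM in normal open libraries. The log2 fold change was -0.44 with a standard error of 0.37 (edgeR, adjusted p = 1.00). In all, 16 share tests were run, for 8 members in both comparisons, and 2 of them gave p below 0.05 before any adjustment.

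The share of Tubb5 was 96.2% ± 0.295 in closed and 95.4% ± 0.654 in open tissue (SD, n = 4 each), with a p of 0.0571 in the exact permutation test. Without library 13, where Tubb5 had its lowest share, open tissue averaged 95.7% ± 0.296 (n = 3). Tuba1c had a share of 3.23% ± 0.321 in closed and 3.78% ± 0.775 in open tissue (SD, n = 4 each; exact permutation p = 0.2). Its level gave a log2 fold change of 0.07 with a standard error of 0.20 (edgeR, adjusted p = 1.00). Library 13 set the spread of open tissue for Tuba1c, at 661 CPM. Without it the open libraries lay between 369 and 409 CPM, and the closed libraries lay between 427 and 490.1 CPM. No count over all genes was made of such separation without library 13.

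**Figure D3:**
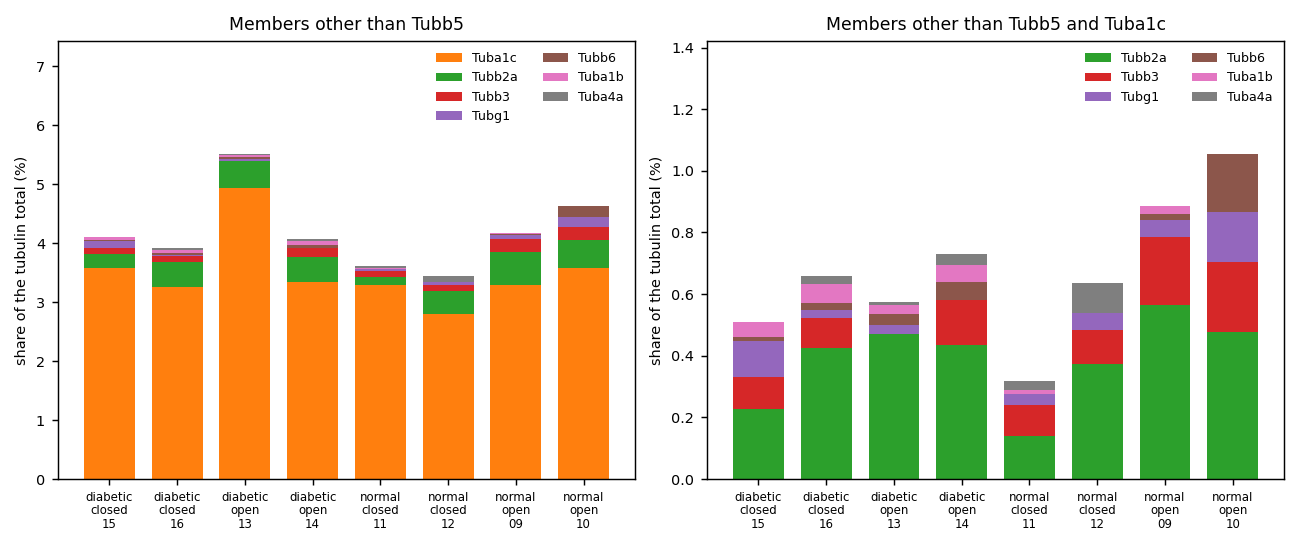
Share of each member in the summed counts of the 10 members (percent), 1 stacked bar per library, with Tubb5 left out (left panel) and with Tubb5 and Tuba1c left out (right panel). Tuba1c reaches 4.93% in diabetic open library 13, and the Tubb2a segment is smaller in every closed library (0.139% to 0.426%) than in any open library (0.436% to 0.564%).

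Tubb3, the neuronal class III beta-tubulin that the TuJ1 antibody detects, was low in this tissue. It had 14.1 and 13.4 CPM in diabetic closed and 0.120 and 17.2 CPM in diabetic open libraries, and 14.6 and 16.4 CPM in normal closed and 27.7 and 23.5 CPM in normal open libraries. The 4 closed libraries were close to each other (14.6 ± 1.30 CPM, SD, n = 4), whereas the open libraries held both the lowest and the highest value. The 0.120 CPM of diabetic open library 13 rests on 2 counts, with an exact Poisson 95% interval of 0.0145 to 0.434 CPM.

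The closed against open value for Tubb3 turned on that library. With all libraries the log2 fold change was 0.01 with a standard error of 0.95 (edgeR, adjusted p = 1.00), and leaving out 1 library at a time gave values between -0.53 and 0.82. Without library 13 the other 3 open libraries lay between 17.2 and 27.7 CPM (mean 22.8 ± 5.26 CPM), all above the 4 closed libraries. How many of all genes separate in this way without library 13 was not counted. The share of Tubb3 was then 0.0962 percentage points lower in closed tissue (exact permutation p = 0.0571). Library 13 is the one with few neural progenitor markers. Its early neuron markers summed to 64.0 CPM with 9 of 14 at 0, against 65.7 to 103 CPM and 4 to 8 of 14 at 0 elsewhere. The sum of 65.7 CPM was that of normal closed library 11, where Tubb3 was at 14.6 CPM. Dcx, a microtubule-associated protein of migrating neurons, had at most 2.49 CPM in any library, while Stmn2 and Map2 (listed as Mtap2) reached 45.4 and 40.1 CPM. The early neuron markers did not all go the same way in library 13. Isl1 (12.4 CPM) and Nefm (3.12 CPM) were higher there than in any other library, and Stmn2 (4.02 CPM) was lower. Map2 was at 28.1 CPM and Gap43 at 16.4 CPM in library 13, both within the range of the other libraries. The part of cell composition in the Tubb3 values was not tested.

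Tubb6, the class V beta-tubulin, had 1.79 and 3.21 CPM in diabetic closed and 4.62 and 6.92 CPM in diabetic open libraries, and 0 and 0 CPM in normal closed and 2.47 and 19.2 CPM in normal open libraries. Within each dam, both closed libraries were below both open libraries, but how many of all genes do so was not counted. Over both dams the ranges overlapped, at 0 to 3.21 CPM for closed tissue and 2.47 to 19.2 CPM for open tissue. The log2 fold change of -4.06 had a standard error of 2.12 and did not pass the test (edgeR, adjusted p = 1.00). Against normal closed tissue, whose libraries were at 0 and where 3 counts over the group were taken as the floor, Tubb6 was at least 35-fold higher in normal open tissue and at least 10.8-fold higher in diabetic closed tissue. Leaving out 1 library put the first bound between 10.2-fold (without library 10) and 79.3-fold (without library 09), and the other between 4.91-fold (without library 12) and 13.2-fold (without library 15). These bounds cover counting error in the group at 0 only, not the spread between libraries.

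Tubg1, the main gamma-tubulin of centrosomes, had 15.9 and 3.77 CPM in diabetic closed and 4.14 and 0.119 CPM in diabetic open libraries, and 5.52 and 8.74 CPM in normal closed and 6.81 and 16.9 CPM in normal open libraries. The regions overlapped, and the lowest value, in diabetic open library 14, rests on 1 count with an exact Poisson 95% interval of 0.00302 to 0.665 CPM. The log2 fold change was 0.77 with a standard error of 1.25 (edgeR, adjusted p = 1.00).

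The remaining alpha genes showed no common pattern by region. Tuba1b, a widely expressed alpha-tubulin, gave a log2 fold change of -0.16 with a standard error of 1.59 between closed and open tissue (edgeR, adjusted p = 1.00). Tuba4a, an alpha-tubulin whose gene does not encode the terminal tyrosine, gave 3.27 with a standard error of 3.40 (edgeR, adjusted p = 1.00). Leaving out library 09 or 10 put the Tuba4a value at 0.92 or 0.95, and leaving out library 15 or 16 at 6.29 or 6.32.

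**Figure D4:**
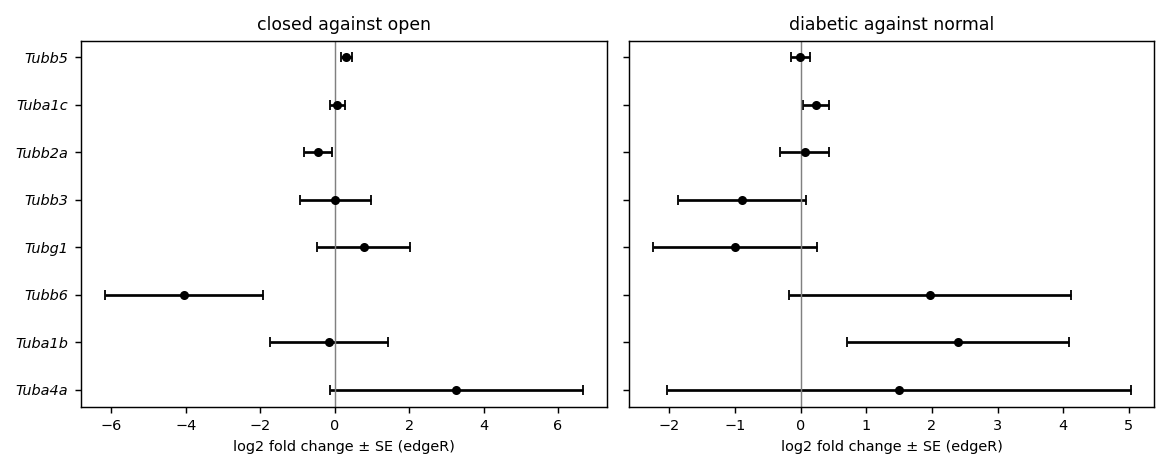
Log2 fold change with its standard error from edgeR for the 8 members with counts, closed against open (left) and diabetic against normal (right), ordered by mean level. The 3 most abundant genes have standard errors of 0.37 or less, the 5 others of 0.95 or more, and none passes the test.

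The comparison of diabetic with normal dams asks whether maternal diabetes goes with a change in tubulin expression. Of the genes tested, edgeR called 0% (536 at an unadjusted p under 0.05, none of them a member), while DESeq2 called 37 and limma-voom 0, with no member among them. Tubb5 averaged 12671 ± 897 CPM in embryos of diabetic dams and 12649 ± 2204 CPM in those of normal dams (SD, n = 4 each). Its log2 fold change was -0.0030 with a standard error of 0.15 (edgeR, adjusted p = 0.999), and its sign changed with the scaling. Tuba1c averaged 501 ± 114 CPM in diabetic and 421 ± 46.1 CPM in normal libraries, with a log2 fold change of 0.23 and a standard error of 0.20 (edgeR, adjusted p = 0.999). Without library 13 the diabetic mean was 448 ± 47.2 CPM (n = 3).

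In these counts, Tuba1b was the member that separated the dams. It had 35 and 63 counts in diabetic closed and 61 and 54 counts in diabetic open libraries, against 9 and 0 counts in normal closed and 33 and 0 counts in normal open libraries. Scaled to the library totals these are 6.94, 8.79, 3.66 and 6.45 CPM in the diabetic libraries, against 1.60, 0, 3.26 and 0 CPM in the normal libraries, so every diabetic library was above every normal library. The nearest pair was library 13 at 3.66 CPM and library 09 at 3.26 CPM. Their exact Poisson 95% intervals overlapped (2.80 to 4.70 CPM and 2.24 to 4.58 CPM). The Tuba1b tag also occurs in the non-coding transcript AC132481.2, and how such tags were treated is not given. How far these counts give the level of Tuba1b was not tested.

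The test over all genes did not call it. The log2 fold change of Tuba1b was 2.40 with a standard error of 1.69 (edgeR, adjusted p = 0.999), and under the alternatives it lay between 1.83 and 4.29, with adjusted p-values between 0.642 and 1.00. In 2.48% of the genes tested every diabetic library was above every normal library, and Tuba1b was the 1 of 8 tested members that did so. In 1.15% every diabetic library was below every normal library, and no member did so. The share of Tuba1b was 0.0487% ± 0.0152 in diabetic and 0.00929% ± 0.0124 in normal libraries (SD, n = 4 each; two-sided exact permutation test, p = 0.0286, the smallest possible). As a share of the alpha members alone, or with Tubb5 taken out of the total, the exact permutation p was 0.0571. Markers of cell types were also compared by dam. None of them passed the test (edgeR), and the summed levels of every list overlapped between the dams. Neural progenitor markers had 2 positive and 8 negative log2 fold changes (median -0.44), and early neuron markers 2 positive and 6 negative (median -0.86). The mesoderm markers summed to 287 to 1566 CPM in diabetic and 152 to 423 CPM in normal libraries. Without library 13 the highest diabetic sum was 843 CPM (library 15). All 7 tested mesoderm markers had a positive log2 fold change (median 1.41). The blood markers summed to 4.36 to 1009 CPM in diabetic and 0.296 to 63.3 CPM in normal libraries, with 3 of 3 tested positive (median 5.82). The endothelial markers summed to 53.5 to 292 CPM in diabetic and 26.4 to 59.6 CPM in normal libraries. Of 5 tested, 3 were positive (median 0.96), while Pecam1 (-0.42) and Emcn (-0.80) were negative. Tek, an endothelial receptor, was the 1 of 5 that was higher in every diabetic library (3.37 to 106 CPM) than in any normal library (0 to 2.57 CPM). Without library 13 the highest diabetic values were 127 CPM for the endothelial sum and 30.1 CPM for Tek, both in library 14. The part of these cell types in the Tuba1b values was not tested.

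The other members overlapped between the dams. Tubb2a averaged 51.5 ± 14.3 CPM in diabetic and 49.2 ± 21.1 CPM in normal libraries (SD, n = 4 each). Tubb3 averaged 11.2 ± 7.57 CPM in diabetic and 20.5 ± 6.09 CPM in normal libraries. Its 2 values in diabetic libraries were below those in normal libraries in each region taken alone. How many of all genes separate within each region was not counted. Over both regions the ranges of 0.120 to 17.2 CPM and 14.6 to 27.7 CPM overlapped. The log2 fold change of Tubb3 was -0.89 with a standard error of 0.97 (edgeR, adjusted p = 0.999). This value too rested on library 13: without it the diabetic mean was 14.9 ± 2.02 CPM (n = 3) and the log2 fold change -0.34, while leaving out library 14 gave -1.70 and limma-voom -2.43. Tubg1 averaged 5.97 ± 6.84 CPM in diabetic and 9.50 ± 5.13 CPM in normal libraries. Its log2 fold change was -1.002 with a standard error of 1.25 (edgeR, adjusted p = 0.999), and leaving out 1 library put it between -1.82 (without library 15) and -0.26 (without library 14).

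Whether the region difference itself differed between the dams was tested as an interaction, in which edgeR called 0% of the genes. At an unadjusted p under 0.05 there were 440 genes, among them Tuba4a and Tubb6, and DESeq2 called 20 genes and limma-voom 1, none a member. Tuba4a had 0 and 26 counts in diabetic closed and 29 and 35 counts in diabetic open libraries, and 26 and 99 counts in normal closed and 0 and 0 counts in normal open libraries. Its counts were thus at 0 in normal open tissue, where the other 3 groups had counts. With 3 counts over that group as the floor, Tuba4a was at least 53.2-fold higher in normal closed and at least 13.5-fold higher in diabetic open tissue. These bounds allow for counting error in the group at 0 only, not for the spread between libraries. Leaving out 1 library put the bound for normal closed tissue between 19.1-fold (without library 09) and 77.2-fold (without library 11), and that for diabetic open tissue between 4.83-fold (without library 09) and 22.0-fold (without library 13). The interaction on the log2 scale was -10.0 with a standard error of 3.82 (edgeR, unadjusted p = 0.0281, adjusted p = 1.00). Tubb6 had its zeros in the opposite place, in normal closed tissue, and its interaction was 8.26 with a standard error of 3.02 (edgeR, unadjusted p = 0.0232, adjusted p = 1.00). Neither passed the test, and fitted values against a group at 0 depend on the prior count.

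Of the tubulin genes outside the 10, 5 of 10 had a count. Tubb4b (listed as Tubb2c), a widely expressed class IVb beta-tubulin, was the second most abundant tubulin, at 839 to 1535 CPM, above Tuba1c in every library. Tubb4a (listed as Tubb4), a beta-tubulin of mature neurons and oligodendrocytes, lay between 7.87 and 28.6 CPM. Tube1 and Tubd1, which act in centrioles, lay between 6.35 and 20.8 CPM and between 5.83 and 19.9 CPM. Tubg2, the other gamma-tubulin, had at most 2.10 CPM. Tuba3a, Tuba3b, Tuba8, Tubal3 and Tubb1 were listed at 0. With these genes added to the total, the share of Tubb2a was again lower in closed tissue (-0.178 percentage points, exact permutation p = 0.0286).

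Genes that fold, nucleate and decorate tubulin were examined as lists, and no list had a member past the threshold in either comparison (edgeR). Of the gamma-tubulin ring complex genes, 11 of 12 were tested, with 6 positive and 5 negative values for closed against open tissue and a median log2 fold change of 0.04 beside 0.07 over all genes tested. Its most abundant members were Nme7 at 88.1 to 168 CPM and Tubgcp2 at 83.2 to 137 CPM. Of the folding factors, which include the CCT chaperonin, 20 of 21 were tested, with 10 positive and 10 negative values and a median of -0.02. Cct3 varied more between libraries (181 to 1068 CPM) than Cct2 (379 to 509.6 CPM), both of which are CCT subunits.

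Of the stathmins and microtubule-associated proteins, 26 of 29 were tested, with 16 positive and 10 negative values and a median of 0.07. Ckap5, a microtubule polymerase, was at 509 to 915 CPM, and Clasp1, a plus-end protein, at 295 to 464 CPM. Of the tubulin-modifying enzymes, 14 of 17 were tested, with 6 positive and 8 negative values and a median of -0.08. Ttll12 was at 123 to 239 CPM and Vash2, a detyrosinating enzyme, at 85.0 to 175 CPM.

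Between dams the same lists gave medians of 0.08 for the ring complex, 0.02 for folding, 0.02 for stathmins and microtubule-associated proteins and 0.29 for modifying enzymes, beside 0.04 over all genes tested. The 8 tested tubulin members had medians of 0.04 by region and 0.15 by dam, with 5 positive and 3 negative values in each comparison. These signs are those of the fit. By dam, Tuba4a (1.49) and Tubb6 (1.97) were positive, although their diabetic means were 0.495 and 0.762 times the normal means. By region, Tuba1b (-0.16) and Tubb3 (0.01) had closed means of 1.3 and 0.855 times the open means.

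Patterns over the 8 libraries were compared by the mean absolute difference of centred log2 CPM, searched over 8070 genes. Closest to Tubb5 were Hnrnph1, Ddx18 and Fam120a, with mean differences of 0.0572, 0.0598 and 0.0751. Closest to Tuba1c were Ckap4, Rab11fip2 and Prkar1a, at 0.0537, 0.082 and 0.0918. Closest to Tubb3 were Mettl13, Ptprz1 and Synrg, at 0.403, 0.407 and 0.412. This measure grows with a gene's own spread, and Tubb3 ranged from 0.120 to 27.7 CPM. Its larger values therefore do not show how closely genes follow it.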

How the data were processed

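The authors deposited 1 table of raw tag counts for each library, with 1 row per gene. The submitters' processing notes name mouse build mm9. For the aligner, counter, annotation, use of strand and treatment of tags found in several genes, nothing is given in the sources used here. Sample labels gave the groups, and libraries are called by the number in their title.

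CPM are counts divided by the library total. Counts were fitted in R 4.3.3 with edgeR 4.0.16 (quasi-likelihood F test, TMM factors from 0.975 to 1.04, Benjamini-Hochberg adjustment over all genes tested, threshold 0.05). filterByExpr (minimum count 10, minimum total 15) kept 11779 genes. Region and dam were terms of an additive model, and the interaction was a contrast of 4 group means. Shares were compared with two-sided exact permutation tests written in Python with numpy 2.4.6. Region or dam labels were permuted over all 8 libraries, without regard to the other factor. The 95% intervals of the shares are Wilson's (scipy 1.17.1). The fits were tested on simulated counts.

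Alternatives were DESeq2 1.42.0, limma-voom (limma 3.58.1), RLE factors, library totals alone, other filters on low counts, other definitions of the share and each library left out. Bounds and sums without single libraries were added after the data were seen, as was a tag length of 25 bases, which gave 73.1% and 29.3% of genes at 0 with shared and with unshared tags. All 10 members are described by name, with the 2 most abundant genes of each list and the 3 closest patterns for Tubb5, Tuba1c and Tubb3. Dcx, Isl1, Nefm, Gap43, Pecam1 and Emcn were named after their values were seen. The members and lists were chosen with earlier results of these data known.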

Additional observations from a re-analysis of the deposited data

Results flagged for a closer look

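Of 64 sets of 4 libraries examined (8 members, level and share, each region and each dam taken as a set), 5 had a library standing far from the other 3; chance gives about 1 in 20. Tuba1c was at 661.5 CPM in open library 13, against 369 to 409 CPM in the other open libraries. The share of Tubb5 was 94.5% in diabetic library 13, against 95.9% to 96.1% in the other diabetic libraries. Tubb6 was at 19.23 CPM in normal library 10, against 0 to 2.47 CPM in the other normal libraries, and its share there was 0.1858%, against 0% to 0.0198%. The share of Tubg1 was 0.1637% in normal library 10, against 0.0378% to 0.0574%.

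Tuba4a values differed in opposite directions by dam in the 2 regions, on few counts. In closed tissue the nearest pair, diabetic library 16 and normal library 11, had 26 counts each. Their exact Poisson 95% intervals overlapped (2.37 to 5.32 CPM and 3.02 to 6.78 CPM), while normal library 12 was at 14.66 CPM. How many of all genes cross in this way was not counted. The diabetic minus normal difference was -7.83 CPM in closed tissue, against 2.96 CPM in open tissue, which differ by -10.79 CPM. The difference on the CPM scale was not tested, and on the log2 scale the interaction had an edgeR adjusted p of 1.00.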

How the results depend on the processing

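No member passed the threshold in any comparison under any of the alternatives run. Genes called by region, dam and interaction numbered 9, 37 and 20 with DESeq2 and 29, 89 and 23 with no filter on low counts, and limma-voom called 1 for the interaction. Leaving out 1 library gave 0 to 3, 0 to 2 and 0 to 9. Where that left a group with 1 library, the fit assumes it to vary like the others. No paired analysis was possible because no replicate number occurs in more than 1 group. The sign of the log2 fold change was reversed in 24 of 222 refits. By region these were Tuba1b with limma-voom (0.60) and Tubb3 with DESeq2 (-0.0161), RLE factors (-0.0156) and library totals (-0.0256), and by dam Tubb5 with library totals (0.01485). The others left out 1 library, where ranges by region were -0.70 to 1.65 for Tuba1b, -0.0265 to 0.27 for Tuba1c, -0.53 to 0.82 for Tubb3 and -0.0419 to 1.33 for Tubg1, and by dam -0.83 to 4.58 for Tuba4a, -0.18 to 0.37 for Tubb2a and -0.0873 to 0.0517 for Tubb5. Share differences were reversed in 26 of 188 settings. Without Tubb5 in the total these were, by region, Tuba1c (3.95 percentage points) and Tubg1 (0.200), and by dam Tubb2a (-0.713). On the centred log2 ratio scale they were, by region, Tuba1b (-0.172), Tubb3 (0.984) and Tubg1 (1.07), and by dam Tuba1c (-0.0617), Tuba4a (0.505), Tubb2a (-0.142) and Tubb6 (2.03). Within the own class they were Tuba1c (-0.519) and Tubb5 (0.0972) by dam, and with the other tubulin genes Tubb2a by dam (-0.00187). Without 1 library, share differences by region ranged over -0.00634 to 0.0146 for Tuba1b and -0.0236 to 0.0306 for Tubg1, and by dam over -0.0242 to 0.00794 for Tuba4a, -0.0821 to 0.0598 for Tubb2a and -0.0364 to 0.0255 for Tubb6. The cause was not tested. With 3 against 4 libraries no share test can reach p below 0.05. The tubulin total was higher in closed tissue in all 10 settings (1799 to 2824 CPM); its difference by dam, 93.3 CPM, ranged from -844 to 783 CPM. Other log2 fold changes that moved over 1.5 times when 1 library was left out ranged, by region, over -5.88 to -2.59 for Tubb6 and -0.75 to -0.19 for Tubb2a, and by dam over 0.52 to 3.82 for Tubb6, 0.04 to 0.34 for Tuba1c and 1.83 to 4.29 for Tuba1b. Members other than Tubb5, Tuba1c and Tubb2a rest on few counts, with standard errors of 0.95 or more.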
